A study of Homo sapiens with 14 samples.

Results

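The D cyclins, their partner kinases CDK4 and CDK6, the INK4 inhibitors CDKN2A and CDKN2C, and the RB family of pocket proteins were examined in OVCAR-3 cells, an established human ovarian carcinoma line, and in sublines made resistant to PHA-533533, a CDK2 inhibitor. The genes were chosen by name, with earlier results of these data known, as CCND1, CCND2, CCND3, CDK4, CDK6, CDKN2A, CDKN2C, RB1, RBL1 and RBL2. Of these 10, 9 had 1 row each in the deposited table, out of 18398 genes, and CDKN2C was not analysed here. RNA was measured on 14 Affymetrix whole-transcript arrays. The 5 selected arrays hold resistant cells at passage 5, growing in 4 µM of the inhibitor. The 5 stable arrays hold the same sublines, R1, R3, R5, R6 and R7, at passage 10 or later in 0 µM. The 4 parental arrays are replicates of unselected OVCAR-3 cells in medium. The sublines were derived independently, and whether each is 1 clone is not given in the sources used here. Selected and stable cells differ in both inhibitor and passage, whose effects cannot be told apart, and an effect of the inhibitor cannot be told apart from acquired resistance when selected cells are set against parental ones.

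In the textbook account of the G1 phase, growth signals raise the D cyclins, which bind and activate CDK4 and CDK6. These kinases phosphorylate RB1 and its relatives, the products of RBL1 (p107) and RBL2 (p130), which otherwise hold E2F transcription factors in check. INK4 proteins bind CDK4 and CDK6 and block them, and cyclin E with CDK2 completes the phosphorylation of the pocket proteins. In ovarian carcinoma, loss of RB1 and gain of CCNE1 are both known routes to an active E2F programme.

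Values are log2 signal as deposited, with the base taken from their range, and levels are set against each other only within a gene. The number of arrays limits the precision. Whether the parental replicates came from separate cultures is not stated in the labels, and p-values then measure only how far these samples spread, which can be technical. The mean of 340 olfactory receptor genes, silent in most tissues and used as a measure of background, was 6.35 ± 0.211 (SD, n = 5) in selected, 6.50 ± 0.212 (SD, n = 5) in stable and 6.42 ± 0.225 (SD, n = 4) in parental arrays. It was lower in the selected than in the stable array of each of the 5 sublines. All 8 measured epithelial markers lay above the 95th percentile of the olfactory receptor genes on every array, against 1 of 6 fibroblast markers (COL1A1), 0 of 4 leukocyte markers and 0 of 4 endothelial markers. The highest correlation between any pair of arrays was 0.9951, and 0 pairs were identical.

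Promoters are shown for 3 of the genes. CCND3 and CDK6 carried the group differences described below, and RBL1 was the 1 gene of the set with E2F letters in the promoter windows searched. RefSeq promoter windows of 300 bases, 250 before to 50 after a start site (GRCh38.p14), were present for 8 of the 10 genes, 15 windows in all, and CCND1 and CCND2 had no entry. RB1 had 1 window, and start sites outside the listed windows were not searched. The letters searched on both strands were TTTCGCGC and TTTGGCGC for E2F and GGGCGG for the GC box bound by SP1. Each window is written 5′ to 3′ on the gene's own strand, from the start site that lies furthest upstream. Capitals mark the E2F letters in RBL1 (chr20:37095948-37096247, minus strand) and the GC boxes in CCND3 (chr6:42048639-42048938, minus strand) and CDK6 (chr7:92836524-92836823, minus strand).
RBL1: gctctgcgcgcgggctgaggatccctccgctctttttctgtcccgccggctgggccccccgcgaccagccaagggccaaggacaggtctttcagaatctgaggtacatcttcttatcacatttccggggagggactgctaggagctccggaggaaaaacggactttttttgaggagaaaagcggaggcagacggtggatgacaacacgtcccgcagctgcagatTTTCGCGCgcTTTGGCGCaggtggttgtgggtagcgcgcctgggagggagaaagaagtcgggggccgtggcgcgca
CCND3: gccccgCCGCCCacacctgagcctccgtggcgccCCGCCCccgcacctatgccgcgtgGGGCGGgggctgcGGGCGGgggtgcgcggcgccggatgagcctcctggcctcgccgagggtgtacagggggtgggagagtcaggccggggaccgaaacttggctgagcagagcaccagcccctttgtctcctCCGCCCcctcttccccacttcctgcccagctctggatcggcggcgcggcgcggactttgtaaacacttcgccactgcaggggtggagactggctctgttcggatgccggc
CDK6: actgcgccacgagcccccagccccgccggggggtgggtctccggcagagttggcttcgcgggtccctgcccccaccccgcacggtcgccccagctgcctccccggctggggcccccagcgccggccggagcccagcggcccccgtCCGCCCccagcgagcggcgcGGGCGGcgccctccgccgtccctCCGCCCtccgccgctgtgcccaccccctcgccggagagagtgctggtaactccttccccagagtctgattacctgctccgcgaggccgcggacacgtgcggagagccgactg
The RBL1 window holds both E2F words, TTTCGCGC at position -26 and TTTGGCGC at position -16 from the start site. RefSeq lists 35116 such windows, of which 1.15% hold either word, and of the 15 windows of the gene set 1 does. The CCND3 window holds 5 GC boxes and the CDK6 window 3, while 45% of all windows hold at least 1. These matches are descriptions of letters and were not tested against the arrays.

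Within the D cyclins, which activate CDK4 and CDK6, only CCND3 differed between groups by the test. CCND3 signal was 10.57, 10.51, 10.59, 10.24 and 10.58 in selected R1, R3, R5, R6 and R7. It was 10.07, 10.24, 10.20, 10.15 and 10.04 in the same sublines when stable, and 10.18, 10.08, 9.91 and 10.01 in the parental replicates. Every selected array lay above every parental one, and selected R6 was the lowest of its group, level with stable R3. The means were 10.50 ± 0.15 (SD, n = 5) in selected, 10.14 ± 0.09 (SD, n = 5) in stable and 10.04 ± 0.12 (SD, n = 4) in parental arrays. CCND3 was 1.37-fold higher in selected than in parental cells, by 0.45 on the log2 scale (SE 0.09, limma adjusted p = 0.0137 over all genes). Across all 18398 genes 6.92% were called for selected against parental, 5.03% as higher and 1.89% as lower, and 6.81% had every selected array above every parental one. Of the 9 measured genes of the set 1 was called higher and 1 lower. This call was lost without parental replicate 4 (0.44, adjusted p = 0.0532).

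CCND3 was also higher in selected than in stable cells, by 0.36 (SE 0.08, limma adjusted p = 0.0465), and positive in 5 of 5 sublines, with 0.50 in R1, 0.27 in R3, 0.39 in R5, 0.54 in R7 and the least, 0.09, in R6. It was the 1 gene of the set called in this comparison, where 2.16% of all genes were called and 1.54% called higher. In stable against parental cells CCND3 differed by 0.09 (95% interval -0.08 to 0.27, limma adjusted p = 0.999), and 0 of the 9 genes were called, as were 0.00544% of all genes. There 2 of the 9 had an unadjusted p under 0.05, CDK6 and CCND1, as had 6.09% of all genes. With subline as a block alone CCND3 kept its call between selected and stable cells (limma adjusted p = 0.0458), and 4.92% of all genes were called. With that block and the olfactory receptor mean in the fit, the CCND3 difference was 0.20 (limma adjusted p = 0.764). That fit called 0 of all 18398 genes, so the lost call says nothing particular to CCND3. Removing 1 array also ended the call for 8 of the 10 arrays, among them both R7 arrays, with adjusted p between 0.0516 and 0.128.

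CCND1, the D cyclin most often amplified in tumours, had an SD of 0.39 in selected, 0.25 in stable and 0.19 in parental arrays. It was 11.36, 10.82, 11.08, 10.36 and 11.21 in selected R1, R3, R5, R6 and R7, against 11.13, 11.37, 11.63, 10.97 and 11.17 in stable and 11.08, 10.91, 10.64 and 11.01 in parental arrays. The lowest of the 14 arrays was selected R6 and the highest stable R5, and all groups overlapped. Selected cells differed from parental by 0.06 (limma adjusted p = 0.912) and from stable by -0.28 (limma adjusted p = 0.518), and stable from parental by 0.34 (limma adjusted p = 0.742). The first of these turned negative under 6 of 19 alternatives. Within sublines the selected array was lower by 0.55 in R3, 0.54 in R5 and 0.61 in R6, and differed by 0.24 in R1 and 0.04 in R7.

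CCND2, the third D cyclin, lay at 6.69 to 6.88 in selected, 6.69 to 6.88 in stable and 6.67 to 6.88 in parental arrays. None of the 14 arrays was above the 95th percentile of the olfactory receptor genes, so its level could not be told from background and no difference between groups could be read. In the plot of signal by array the CCND2 points form a flat band. The selected CCND3 points lie above the parental ones, selected R6 is level with stable R3, and stable and parental points overlap.

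**Figure D1:**
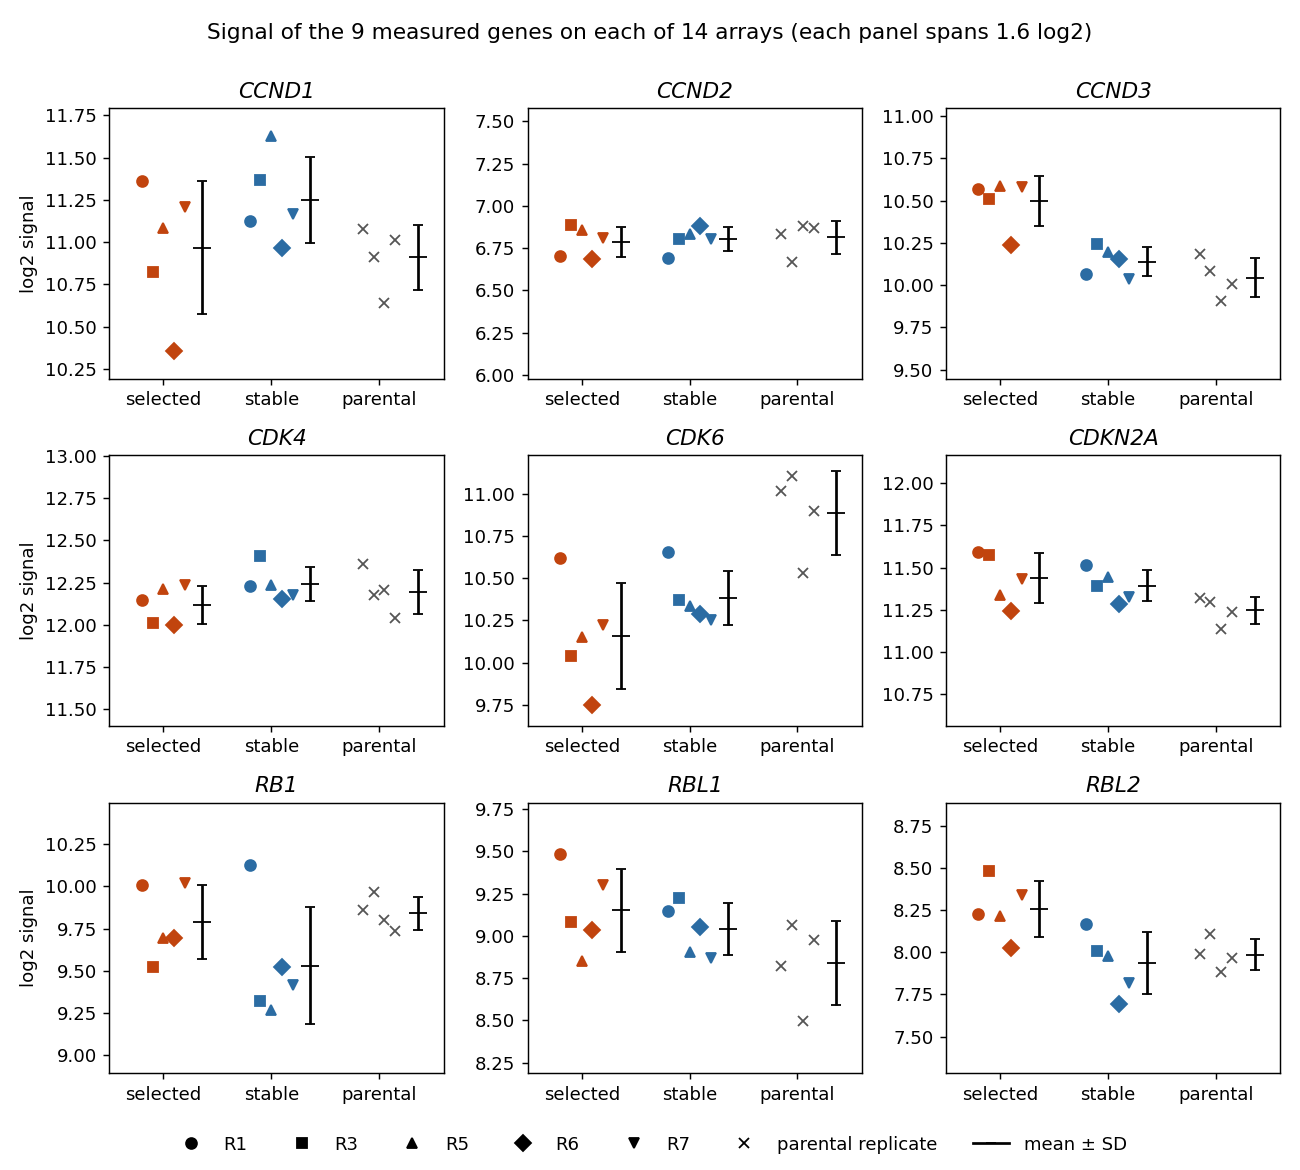
Log2 signal (y axis) of each measured gene in selected, stable and parental arrays (x axis), with 1 symbol per array, shaped by subline, and bars for the mean ± SD; every panel spans the same height. The 5 selected CCND3 arrays lie above the 4 parental ones, and all 10 resistant CDK6 arrays lie below parental replicates 1, 2 and 4.

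Among the kinases CDK6 was lower in selected cells, and no difference was called for CDK4. CDK6 signal was 10.62, 10.04, 10.15, 9.75 and 10.22 in selected R1, R3, R5, R6 and R7, and 10.65, 10.37, 10.34, 10.29 and 10.25 in the stable arrays of those sublines. The parental replicates gave 11.01, 11.10, 10.53 and 10.90. Both R1 arrays lay above parental replicate 3, and all other resistant arrays lay below every parental one. The means were 10.16 ± 0.31 (SD, n = 5) in selected, 10.38 ± 0.16 (SD, n = 5) in stable and 10.89 ± 0.25 (SD, n = 4) in parental arrays. In selected cells CDK6 fell to 0.603 of the parental signal, with a log2 difference of -0.73 (SE 0.16, limma adjusted p = 0.0211). In these bulk samples fewer cells of a type and less RNA per cell cannot be told apart.

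In stable cells, after growth without the inhibitor, CDK6 differed from parental by -0.50 (SE 0.12, 95% interval -0.78 to -0.23), a ratio of 0.705, and did not pass (limma adjusted p = 0.342). It passed with array weights (adjusted p = 0.00934) and when the olfactory receptor mean was a covariate (adjusted p = 0.038). Both comparisons use the same parental arrays. Selected and stable cells differed by -0.23 (SE 0.14, limma adjusted p = 0.507), and the selected array was the lower one in 5 of 5 sublines, by 0.54 in R6, 0.33 in R3, 0.19 in R5, 0.04 in R1 and 0.03 in R7. The call in selected against parental cells stood in 12 of 19 alternatives. It was lost, for instance, without parental replicate 1 (adjusted p = 0.0629), 2 (adjusted p = 0.0535) or 4 (adjusted p = 0.0674) and without selected R3 (adjusted p = 0.0506) or R7 (adjusted p = 0.0522), with differences between -0.75 and -0.66.

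CDK4, the other D cyclin kinase, had a range of 0.41 over the 14 arrays, the least of the set after CCND2. It lay at 12.14, 12.01, 12.21, 12.00 and 12.24 in selected R1, R3, R5, R6 and R7, at 12.23, 12.41, 12.24, 12.15 and 12.18 in stable, and at 12.36, 12.18, 12.21 and 12.04 in parental arrays. The groups overlapped throughout. Its differences were -0.08 for selected against parental (95% interval -0.26 to 0.11, limma adjusted p = 0.719), 0.04 for stable against parental (95% interval -0.14 to 0.23) and -0.12 for selected against stable (95% interval -0.29 to 0.04). TSPAN31, which overlaps CDK4 on chromosome 12 in the RefSeq annotation, was lower in selected cells than in parental by 0.49 and is described in the closing section.

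**Figure D2:**
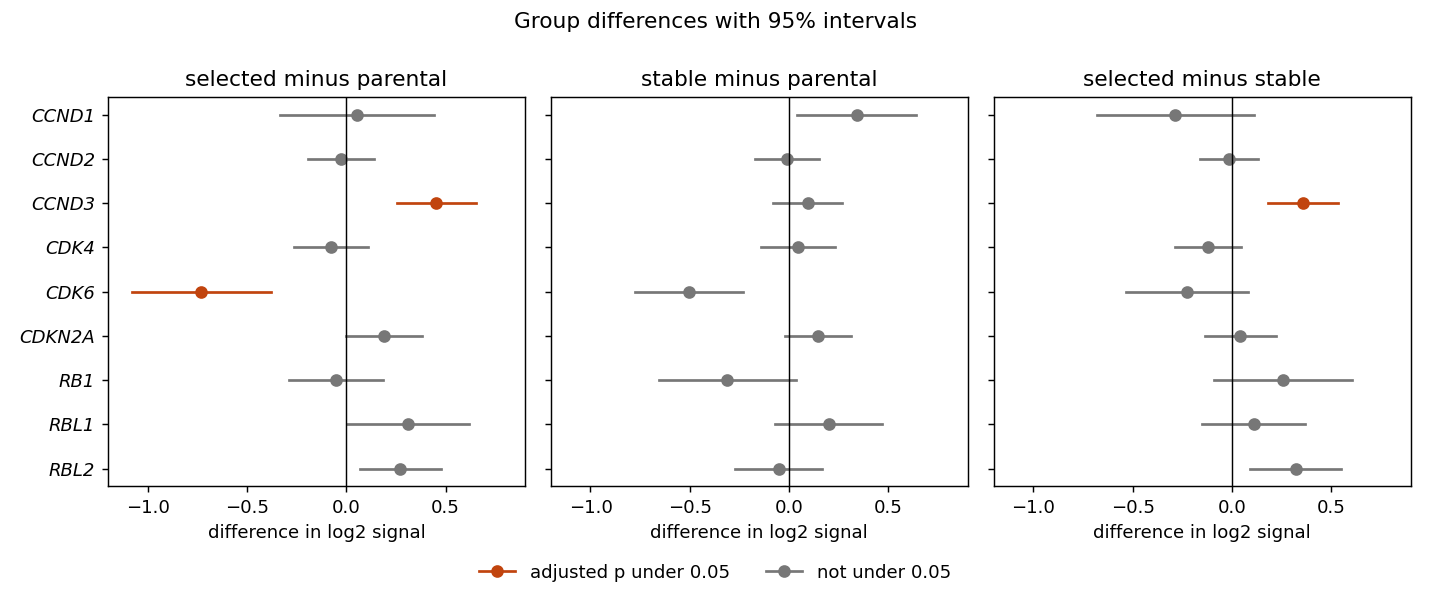
Difference in log2 signal (x axis) of each measured gene (y axis) for selected minus parental, stable minus parental and selected minus stable, with 95% intervals from limma; orange marks an adjusted p under 0.05. CCND3 at 0.45 and 0.36 and CDK6 at -0.73 are the 3 orange points, and the CDK6 interval for stable minus parental runs from -0.78 to -0.23.

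CDKN2A, which encodes an INK4 inhibitor and, in another reading frame, ARF, a regulator of the p53 pathway, was strongly expressed in all arrays. It measured 11.59, 11.57, 11.34, 11.24 and 11.43 in selected R1, R3, R5, R6 and R7, 11.52, 11.39, 11.44, 11.29 and 11.33 in stable, and 11.32, 11.30, 11.14 and 11.24 in parental arrays. The R6 arrays lay within the parental range and those of R1, R3, R5 and R7 above it, stable R7 only just. The log2 difference was 0.19 for selected (95% interval -0.001 to 0.38, limma adjusted p = 0.25) and 0.15 for stable cells (limma adjusted p = 0.857) against parental, and neither passed. Of the other INK4 genes CDKN2B differed by 0.07 (limma adjusted p = 0.859) and CDKN2D by 0.08 (limma adjusted p = 0.732) in selected against parental cells.

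None of the pocket protein genes was called in any group comparison. RB1, the founding tumour suppressor of the family, was 10.01, 9.52, 9.70, 9.70 and 10.02 in selected R1, R3, R5, R6 and R7. The stable arrays gave 10.13, 9.32, 9.27, 9.52 and 9.42, and the parental replicates 9.86, 9.97, 9.80 and 9.74. Stable R1 was the highest of the 14 arrays, and the other 4 stable arrays lay below every parental one. RB1 differed by -0.31 in stable against parental cells (SE 0.16, 95% interval -0.65 to 0.03, limma adjusted p = 0.857), by -0.05 in selected against parental (limma adjusted p = 0.86) and by 0.26 in selected against stable cells (limma adjusted p = 0.504). The selected array was higher in 4 of 5 sublines, by 0.60 in R7, 0.43 in R5, 0.20 in R3 and 0.17 in R6, and the R1 difference was -0.12.

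RBL1, whose product p107 is present mainly in dividing cells and whose promoter carries the E2F letters printed above, lay at 9.48, 9.08, 8.85, 9.03 and 9.30 in selected R1, R3, R5, R6 and R7. It was 9.15, 9.22, 8.90, 9.05 and 8.87 in stable and 8.82, 9.06, 8.49 and 8.98 in parental arrays. The groups overlapped, and parental replicate 3 was the lowest array. RBL1 differed by 0.31 (limma adjusted p = 0.242) in selected and 0.20 (limma adjusted p = 0.953) in stable cells against parental. RBL2, whose product p130 binds E2F4 in resting cells as part of the DREAM repressor, was 8.23, 8.48, 8.22, 8.02 and 8.34 in selected R1, R3, R5, R6 and R7. Stable arrays gave 8.17, 8.01, 7.98, 7.69 and 7.82, and parental arrays 7.99, 8.11, 7.88 and 7.96.

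RBL2 was above the 95th percentile of the olfactory receptor genes on 10 of 14 arrays, CCND2 on 0, and the other 7 measured genes on all 14. In selected cells it differed by 0.27 from parental (SE 0.09, limma adjusted p = 0.114) and by 0.32 from stable cells (SE 0.11, limma adjusted p = 0.149). Its selected array was the higher one in 5 of 5 sublines, and with subline as a block the adjusted p was 0.0624. Across the 14 arrays the background measure had a Pearson correlation of -0.73 with RBL1, -0.699 with RBL2, -0.675 with CDKN2A and -0.598 with RB1, against -0.421 with CCND3 and -0.41 with CDK6. These are descriptions over arrays that share sublines and parental cells, and the part of background in the pocket protein differences was not tested beyond the covariate settings.

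No gene of the set was called for any subline against parental cells, and CDK6 and RB1 had the smallest p of the set in the test between sublines. The subline means of CCND1 lay further apart than theirs, from 10.66 in R6 to 11.36 in R5. The fit of sublines against parental cells had no term for growth condition. The difference between the selected and stable arrays of a subline thus entered its spread. For CCND3 the SE was 0.18 in R1 against parental and 0.09 in selected against parental cells. A missing call for a subline is therefore not read as a lack of difference. With the selected and stable arrays of a subline averaged, CDK6 differed from parental by -0.87 in R6, -0.68 in R3, -0.65 in R7, -0.64 in R5 and -0.25 in R1 (SE 0.17 each), with limma adjusted p of 0.157, 0.175, 0.581, 0.341 and 0.403. RB1 differed by -0.42 in R3, -0.36 in R5, -0.23 in R6, -0.12 in R7 and 0.23 in R1 (SE 0.16 each), with limma adjusted p of 0.407, 0.791, 0.835, 0.996 and 0.415. R1 thus had the CDK6 level nearest to parental cells and the highest RB1, and its arrays also had the lowest background in each growth condition (6.06 selected, 6.18 stable). The R1 difference in RB1 was -0.007 once the olfactory receptor mean was in the fit, and the cause of the R1 values was not tested.

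Among all genes 0% were called in R1, R6 and R7, 0.196% in R3 and 0.0598% in R5. In the F test between the sublines, with growth condition as a covariate, CDK6 (limma adjusted p = 0.24) and RB1 (limma adjusted p = 0.248) had the smallest p of the set and did not pass, while 0.12% of all genes did. The 2 genes were also the only members with an unadjusted p under 0.05 in that test, a level that 2914 of the 18398 genes reached. Among the selected arrays R6 had the lowest CCND1, CCND3, CDK4, CDK6, CDKN2A and RBL2 and also the highest background, 6.60. The map of differences by array shows this as a column in which CCND1 and CDK6 are lowest, at -0.55 and -1.14 against the parental mean.

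**Figure D3:**
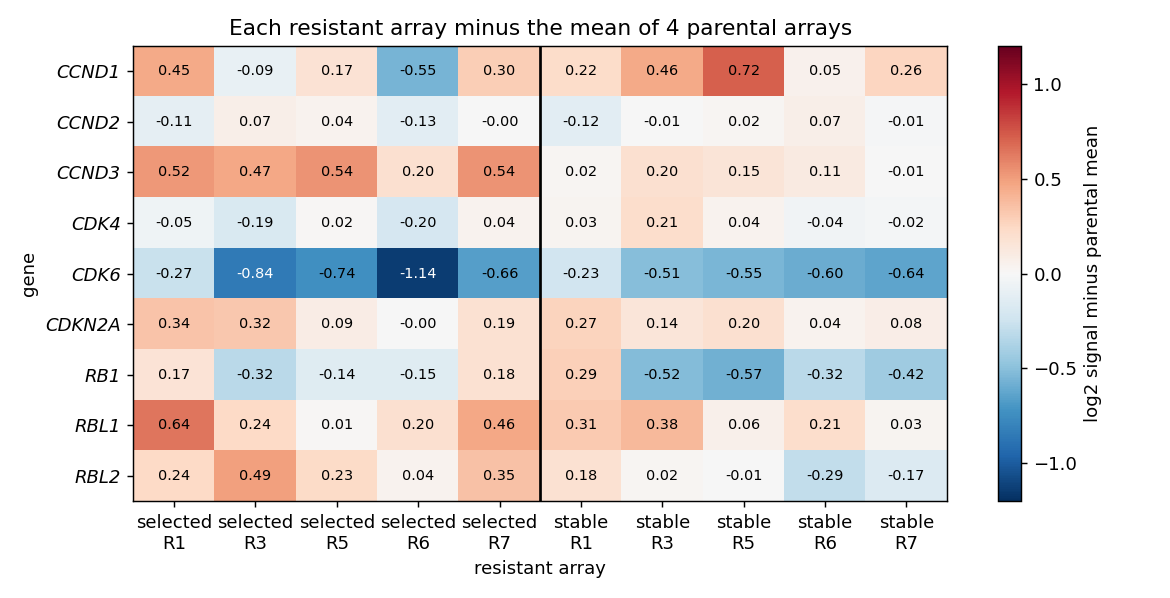
Each resistant array (columns) minus the mean of the 4 parental arrays in log2 signal (colour and printed value) for the measured genes (rows), selected arrays left of stable ones. CDK6 is below 0 in all 10 columns, CCND3 is at 0.20 to 0.54 in the selected columns, and RB1 is above 0 in both R1 columns and in selected R7 and below 0 in the others.

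The 10 nearest measured genes on each side of RB1 on chromosome 13 were examined, as were those of the other 8 genes. The median Pearson correlation of the RB1 neighbours with RB1 over the 14 arrays was 0.511, and 10 of 20 exceeded 0.5. It was 0.46 after the olfactory receptor mean was removed. For the other members the median ran from -0.163 (CCND1) to 0.315 (CCND2), and of 17892 genes with a full window 92.2% had a lower median than RB1. Neighbouring genes share arrays and background, so these values are descriptions.

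The RB1 neighbours with the highest correlations, named after their values were seen, were ESD (esterase D) at 0.931, SUCLA2 (a subunit of succinate-CoA ligase) at 0.889 and MED4 (a Mediator subunit) at 0.882. ESD was 8.48, 7.79, 8.02, 7.93 and 8.51 in selected R1, R3, R5, R6 and R7, against 8.63, 7.80, 7.86, 7.92 and 7.83 in stable and 8.22, 8.30, 8.11 and 8.03 in parental arrays. It was high in both R1 arrays and in selected R7, the same 3 arrays in which RB1 stood above all parental replicates. ESD was above the 95th percentile of the olfactory receptor genes on 10 of 14 arrays and SUCLA2 on all 14, while MED4 was above it on 2, so no difference is read from MED4. SUCLA2 differed from parental by -0.40 in R5, -0.22 in R3, -0.16 in R7, -0.006 in R6 and 0.21 in R1. Of the 20 neighbours, dim ones included, 11 lay above the parental mean in R1, 6 in R6, 4 in R3, 2 in R7 and 1 in R5. Their median difference was 0.03 in R1, -0.006 in R6, -0.06 in R3, -0.06 in R7 and -0.08 in R5. For all genes it was -0.02, 0.01, -0.01, -0.007 and 0.015 in the same order. The share of all genes above the parental mean is not given here, so no trait of the locus is read from these counts. Between sublines neither ESD (limma adjusted p = 0.226) nor SUCLA2 (limma adjusted p = 0.262) passed. In selected against stable cells RCBTB1 (0.53, limma adjusted p = 0.0243) and LCP1 (0.41, limma adjusted p = 0.0361) were called higher. So were ITM2B (0.39) and RCBTB2 (0.26), both with a limma adjusted p of 0.0482. The other RB1 neighbours were not called there, and 1.54% of all genes were called higher. LCP1 and RCBTB2 were dim, with mean signals of 7 and 6.72. ITM2B, next to RB1, differed from parental by 0.03 in R3, where RB1 differed by -0.42. DNA copy number was not analysed here.

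**Figure D4:**
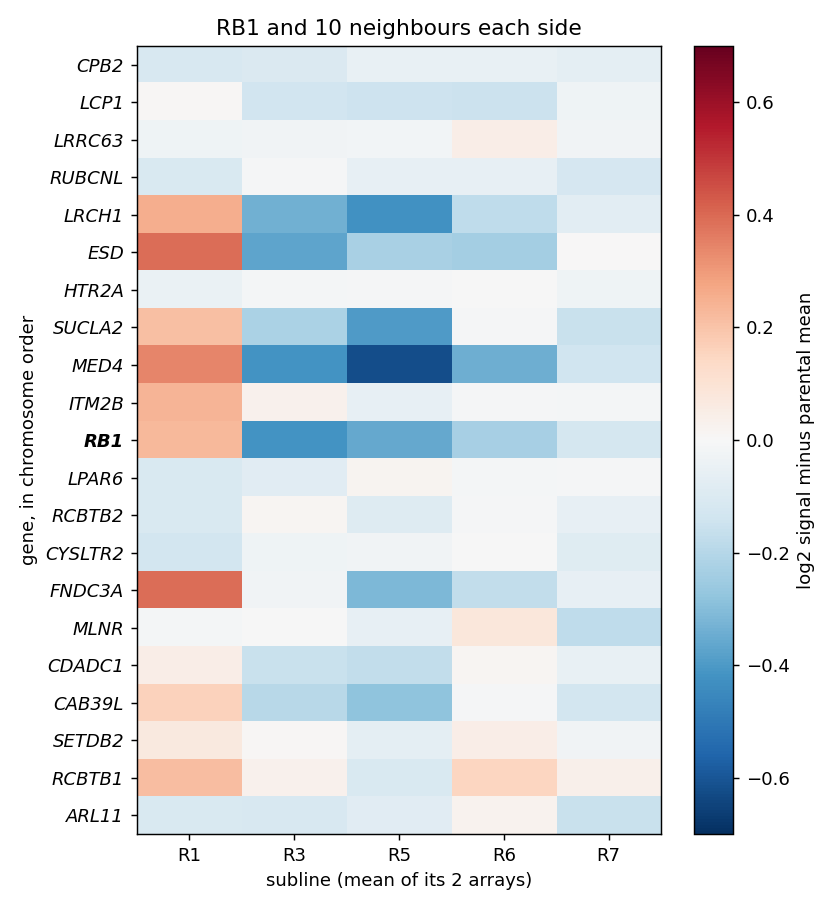
RB1 and the 10 nearest measured genes on each side (rows, in chromosome order) in each subline (columns), coloured by the mean log2 signal of its arrays minus the parental mean. ESD, SUCLA2 and FNDC3A are above 0 with RB1 in R1 and below 0 with it in R3 and R5, FNDC3A only just in R3 (-0.02). SUCLA2 was above the olfactory receptor 95th percentile on 14 of 14 arrays, and ESD and FNDC3A on 10. The colours of MED4 and LRCH1 run the same way, and these genes were above it on 2 and 5 of 14 arrays. ITM2B, next to RB1, is at 0.03 in R3.

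The genes most alike in pattern were found by Pearson correlation over the 14 arrays among 2087 genes whose range was at least 1 log2, as a description. For CDK6 these were XPNPEP3 (0.956), SH3BP4 (0.939) and RGCC (0.93). For CCND3 they were PRCP (0.93), POGLUT3 (0.926) and DUSP14 (0.924). For RB1 they were COG6 (0.946), PROSER1 (0.916) and RNF152 (0.907), of which COG6 and PROSER1 also lie on chromosome 13. CCND1 was most like TRIB2 (0.91), MET and ANKEF1 (both 0.908), CDK4 like UGCG (0.898), CDKN2A like PTPN21 (0.924), RBL1 like ZFX (0.936) and RBL2 like POR (0.932). The genes most like CCND2 reached 0.666 and were led by the olfactory receptor OR6C75. Within the set the highest correlations were those of CCND3 with RBL2 (0.735) and of CDKN2A with RBL1 (0.706), and CCND3 and CDK6 had -0.42.

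Downstream and upstream genes of the pathway were followed on a list of 40 genes, of which 39 were measured and ARID4A was not analysed here. The list was chosen with earlier results of these data known, so its counts beside those of all genes are descriptions. In selected against parental cells 5 of the 39 were called higher and 0 lower, which is 2 of 3 cyclin E and CDK2 genes, 1 of 3 CIP/KIP inhibitors, 1 of 10 E2F and DP factors and 1 of 8 genes of the MuvB and DREAM complexes. Over all genes 6.92% were called and 5.03% called higher. No other INK4 gene, CDK-activating subunit, D cyclin turnover factor, chaperone or RB corepressor was called. The median difference of the 39 was 0.137, against -0.013 for all genes, and 32 lay above 0. In stable against parental cells 0 were called by limma, 2 had an unadjusted p under 0.05 (6.09% of all genes had), and the smallest p was that of CDK2, at 0.27 (limma adjusted p = 0.528). In selected against stable cells 3 were called higher and 0 lower, beside 2.16% of all genes called and 1.54% called higher, and 5 with subline as a block, which called 4.92% of all genes.

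E2F1, the activator that RB1 restrains, was 10.02, 10.12, 9.99, 10.10 and 10.13 in selected R1, R3, R5, R6 and R7. It was 9.91, 9.80, 9.68, 9.73 and 9.57 in stable and 9.67, 9.73, 9.77 and 9.88 in parental arrays. Every selected array was above every stable and parental one. Such a gap held for 2.83% of all genes between selected and stable cells and for 6.81% between selected and parental cells. E2F1 rose by 0.31 over parental (SE 0.07, limma adjusted p = 0.0236) and by 0.33 over stable cells (SE 0.07, limma adjusted p = 0.0386), and lost these calls in 6 of 19 and 13 of 22 alternatives. E2F7, a repressor that is itself an E2F target, was 9.85, 9.66, 9.57, 9.63 and 9.80 in selected, 9.39, 9.08, 9.22, 9.45 and 9.11 in stable, and 9.17, 9.54, 8.85 and 9.49 in parental arrays, R1 to R7 in the same order. Here too the selected arrays did not overlap the others. It rose by 0.45 over stable cells (SE 0.09, limma adjusted p = 0.0293, lost in 10 of 22 alternatives) and differed by 0.44 from parental without passing (limma adjusted p = 0.0689).

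FOXM1, a transcription factor that takes over MuvB target genes late in the cell cycle, was 10.80, 10.93, 10.65, 10.58 and 10.81 in selected R1, R3, R5, R6 and R7, against 10.57, 10.65, 10.43, 10.43 and 10.18 in stable and 10.34, 10.48, 9.91 and 10.46 in parental arrays. Every selected array exceeded every parental one, as for 6.81% of all genes. FOXM1 rose by 0.46 over parental (SE 0.12, limma adjusted p = 0.0443), a call lost in 9 of 19 alternatives. CDKN1A, the CIP/KIP inhibitor p21 and a p53 target, was 8.74, 8.31, 7.91, 8.15 and 8.25 in selected R1, R3, R5, R6 and R7. It was 7.51, 7.51, 7.63, 7.72 and 7.77 in stable and 7.58, 7.67, 7.71 and 7.77 in parental arrays, so that no selected array overlapped the others. It was above the 95th percentile of the olfactory receptor genes on 5 of 5 selected, 1 of 5 stable and 2 of 4 parental arrays, so the stable and parental levels were near background. It rose by 0.59 over parental (SE 0.14, limma adjusted p = 0.025) and by 0.64 over stable cells (SE 0.13, limma adjusted p = 0.0307), and lost these calls in 7 of 19 and 9 of 22 alternatives.

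The E-type cyclins, which act with CDK2 after the D cyclins, were the remaining called genes. CCNE2 was 10.52, 9.72, 10.02, 9.55 and 10.25 in selected R1, R3, R5, R6 and R7, 9.75, 9.61, 8.82, 9.13 and 8.93 in stable, and 9.47, 9.46, 8.99 and 9.17 in parental arrays. All selected arrays lay above the parental ones, as for 6.81% of all genes. CCNE2 rose by 0.74 (SE 0.18, limma adjusted p = 0.0331), a call lost in 9 of 19 alternatives. Over stable cells its difference was 0.76, with a limma adjusted p of 0.0979, and of 0.0378 with subline as a block. CCNE1 rose by 0.45 over parental, at the threshold (limma adjusted p = 0.0497), and lost this call in 10 of 19 alternatives. The DREAM kinase DYRK1A, at 0.36 over stable cells, was the other gene called with the block (limma adjusted p = 0.0487) and not without it (limma adjusted p = 0.0947). The higher values of these genes in selected than in stable cells stood beside a lower olfactory receptor mean in all 5 selected arrays of the pairs. With that mean and subline both in the fit, no difference of a pathway gene named here passed, the smallest adjusted p being that of CDKN1A (0.643), and 0 of all 18398 genes were called in that limma fit.

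**Figure D5:**
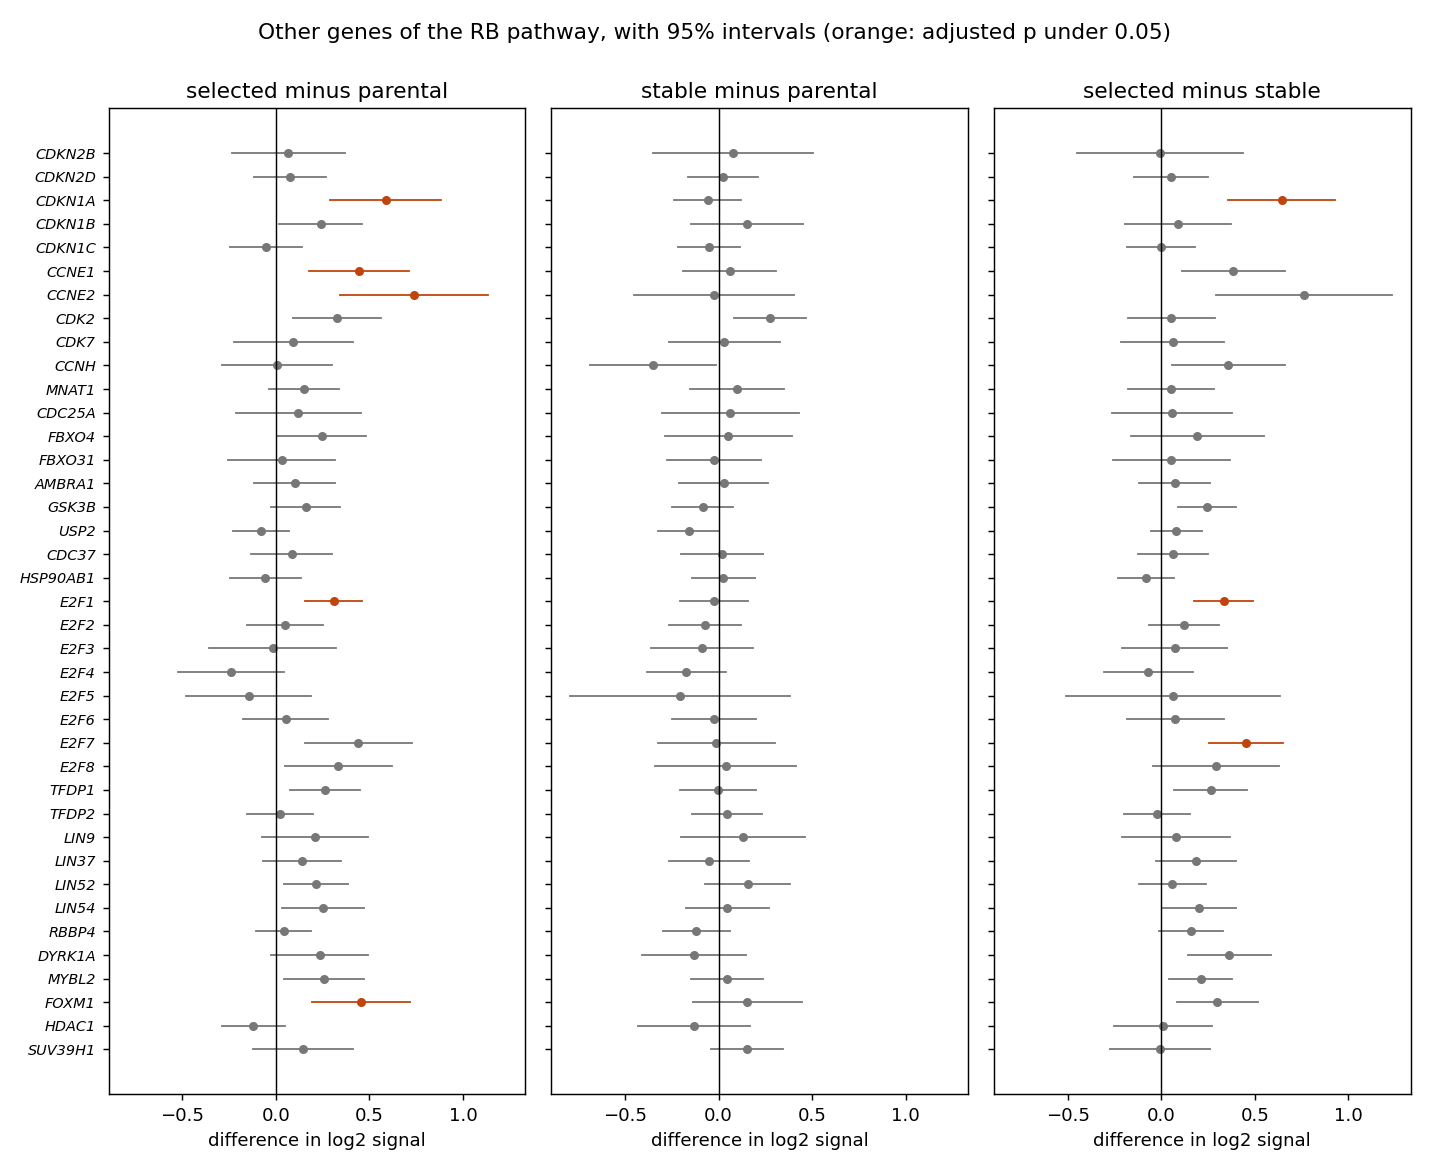
Difference in log2 signal (x axes) of the 39 other pathway genes (rows) for selected minus parental, stable minus parental and selected minus stable, with 95% intervals from limma; orange marks an adjusted p under 0.05. The orange points are CDKN1A, CCNE1, CCNE2, E2F1 and FOXM1 in the first panel, none in the second, and CDKN1A, E2F1 and E2F7 in the third.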

How the data were processed

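Total RNA of cell pellets was labelled with biotin and hybridised to Affymetrix whole-transcript arrays, per the labels. The deposited values were used as log2 signal, on a scale taken from their range, 4.34 to 14.9. How background was corrected and arrays normalized is not given in the sources used here. Of 32295 rows the platform annotation names 1 gene for 19148, several for 1376 and none for 11771. Symbols were updated by gene ID through RefSeq (GRCh38.p14), which held 19118 of the 19148. Each gene was represented by its row of highest mean, leaving 18398 genes with no filter on dim ones.

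Tests (two-sided) by lmFit and eBayes (limma 3.58.1, R 4.3.3) ran on the groups compared, without covariates, and p was adjusted by Benjamini-Hochberg over all 18398 genes, with a threshold of 0.05. Sublines against parental used all 14 arrays in 6 groups, with no term for growth condition. Selected and stable arrays of a subline share its number, so the labels pair them. The correlations of paired deviations from the group means were 0.636 in R1, 0.546 in R6, 0.371 in R5, 0.0497 in R3 and -0.468 in R7. By these correlations only the selected arrays of R1 and R6 matched their own stable array best. Selected R3 matched stable R5 best, R5 matched R7 and R7 matched R1, so the pairing rests on the labels. The genes of the set and the pathway list were chosen with earlier results of these data known. The genes named are the set, pathway genes called in a comparison or of smallest p where none was, and up to 3 genes most alike per member. RB1 neighbours and the genes under other observations were named after their values were seen.

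Alternatives were array weights, median centring, quantile normalization, trended and robust variance, the mean of a gene's rows, a filter at the 40th percentile, the subline block, all arrays in 1 fit (also with a random block for subline), the olfactory receptor mean as a covariate, leaving out R7 and leaving out each array. Tested on simulated data over 18398 genes, the fit recovered 36% of genes changed by 0.5 log2 and 96% of those changed by 1 in selected against parental cells. The shares were 54% and 88% in selected against stable cells, 56% and 96% in stable against parental cells, and 0% and 46% in the F test of sublines. Figures were drawn with matplotlib 3.10.9.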

Additional observations from a re-analysis of the deposited data

Results flagged for a closer look

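CCND3 in the selected array of R6 stood apart from the other 4 selected arrays, at 10.24 against 10.51 to 10.59. Its gap to the nearest array was 0.784 of the group's range, above the Dixon limit of 0.71 for 5 samples. Of 27 groups tested this was the 1 that passed, and chance passes about 1 in 20.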

How the results depend on the processing

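CCND3 against parental kept its call in 18 of 19 alternatives for selected cells. The number of genes of the set called for selected against parental was 1 in place of 2 with arrays centred on their median and without subline R7, and 0 to 3 with single arrays left out. For stable against parental it was 1 (CDK6) with the olfactory receptor mean and 1 with array weights, and 0 to 0 with single arrays left out. For selected against stable it was 0 with centring, with trended variance, with the olfactory receptor mean, without R7 and with the subline block plus that mean, 2 (CCND3 and RBL2) with array weights and with the random block, 1 with the subline block alone, and 0 to 1 with single arrays left out. With array weights 1 gene each was called in R1 (CDKN2A), R5 and R6 (both CDK6). The block changed no other call of the set.

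The signs that turned belonged to differences that were not called. CCND1 in selected against parental was -0.02188 with the olfactory receptor mean, -0.05337 with array weights, -0.003979 without R7, and -0.04294 to 0.2087 with single arrays left out. In stable against parental CDK4 was -0.007235 with array weights. In selected against stable the olfactory receptor mean gave -0.03504 for CDKN2A and -0.006712 for RBL1, and with the block as well -0.01942 and -0.1032. RB1 in R1 was -0.007369 with that mean. CCND2, at background, was 0.01303 with quantile normalization and 0.004491 with centring in selected against parental, 0.0005124 with centring and 0.009819 with array weights in stable against parental, and 0.02923, 0.003978 and 0.00787 with quantile normalization, centring and the olfactory receptor mean in selected against stable. The cause was not tested. With single arrays left out, CCND2 lay between -0.07209 and 0.0007689, -0.05862 and 0.01706, and -0.04159 and 0.01183 in the 3 group comparisons, RB1 between -0.1108 and 0.01437 in selected against parental, CDK4 between -0.007887 and 0.09898 and RBL2 between -0.1102 and 0.008882 in stable against parental, and RB1 in R7 between -0.4239 and 0.1805.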

Other observations

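Some genes near members of the set also differed in selected cells. Those named here were picked after their values were seen, from the 10 nearest measured genes on each side of each member. Most of these neighbours were not called, and some that are not named were. Over all genes 6.92% were called for selected against parental and 2.16% for selected against stable cells, so no trait of the neighbourhoods is read from them. TSPAN31, a tetraspanin gene that overlaps CDK4 on chromosome 12 in the RefSeq annotation, was 10.03, 9.86, 9.88, 10.30 and 10.26 in selected R1, R3, R5, R6 and R7, against 10.90, 10.89, 10.74, 10.37 and 10.60 in stable and 10.79, 10.53, 10.56 and 10.35 in parental arrays. All selected arrays lay below all others, and the share of all genes with such a gap in this direction is not given here. TSPAN31 differed by -0.49 from parental (SE 0.12, limma adjusted p = 0.0275) and by -0.64 from stable cells (SE 0.12, limma adjusted p = 0.026), calls that stood in 13 of 19 and 13 of 22 alternatives. CDK4 over the same arrays differed by -0.08 and -0.12. Whether the array tells strands apart at this overlap was not tested.

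MIR31HG, the host transcript of a microRNA, lies 5 measured genes from CDKN2A on chromosome 9. It was 10.25, 11.08, 9.61, 10.63 and 10.64 in selected R1, R3, R5, R6 and R7, 10.60, 9.41, 9.31, 9.57 and 8.50 in stable, and 8.54, 9.02, 8.82 and 8.75 in parental arrays. Every selected array lay above every parental one, as for 6.81% of all genes, and of the stable arrays all but R7 did. MIR31HG rose by 1.66 over parental in selected cells (SE 0.23, limma adjusted p = 0.00266, called in 19 of 19 alternatives), and the stable difference of 0.70 did not pass (limma adjusted p = 0.821).

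SAMD9, a gene known to respond to interferon and the measured gene next to CDK6 on chromosome 7, was 8.08, 7.87, 7.56, 7.71 and 8.50 in selected R1, R3, R5, R6 and R7, 7.82, 7.90, 7.92, 7.11 and 7.32 in stable, and 7.16, 7.20, 6.61 and 6.99 in parental arrays. It was above the 95th percentile of the olfactory receptor genes on 3 of 5 selected, 2 of 5 stable and 0 of 4 parental arrays, so its parental level could not be told from background and no size of difference is given. SAMD9 was called higher in selected than in parental cells (limma adjusted p = 0.01, in 18 of 18 alternatives), and stable cells did not pass (limma adjusted p = 0.492).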
